A study of Caenorhabditis elegans with 10 samples.

Results

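The genes described here encode 9 secreted proteins of the embryonic sheath, the precuticle and the moulting apparatus of Caenorhabditis elegans. They were taken by name from a deposited table of 45461 genes: noah-1, noah-2, fbn-1, sym-1, let-653, lpr-1, lpr-3, mlt-10 and mlt-11. All 9 were found, and all 9 passed the filter on low counts, as did 14802 genes in all. RNA was sequenced from 10 libraries of embryos, 3 hours after eggs were prepared, in 5 groups of 2 libraries. The wild type was the laboratory strain N2, and the mutant was lin-45(n2018), which carries an allele of the RAF kinase gene that acts between RAS and ERK. Parents of 4 groups were kept on 50 mM NaCl. Embryos held on 50 mM are called unstressed (N2 50 mM and lin-45 50 mM), and those moved to 500 mM are called stressed (N2 500 mM and lin-45 500 mM). The last group, N2 300-500 mM or preconditioned, had N2 parents on 300 mM NaCl and embryos on 500 mM. The labels do not say whether the libraries of a group came from separate cultures, so the spread behind the p-values may be technical.

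Before a nematode makes its collagen cuticle, the epidermis and the openings of its tubes are covered by a transient apical matrix. In the embryo this matrix is called the embryonic sheath, and it carries the pulling forces that elongate the worm. A related layer, the precuticle, is laid down before each new cuticle, patterns it, and is shed or remodelled at the moult. NOAH-1 and NOAH-2 are zona pellucida (ZP) domain proteins of the sheath, and FBN-1 is a fibrillin-related ZP protein of the same layer. SYM-1 is an extracellular protein with leucine-rich repeats (LRR), known from its synthetic lethality with the splicing factor gene mec-8, whose product also acts on fbn-1 transcripts. LET-653 is a ZP protein that keeps the excretory duct lumen open, LPR-1 and LPR-3 are secreted lipocalins of the same matrices, and MLT-10 and MLT-11 were found as proteins needed for moulting. MLT-11 carries Kunitz-type protease inhibitor domains.

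The genes are spread over the genome. On the build ce10 named in the submitters' processing notes, noah-1 (C34G6.6) lies on chromosome I at 5874424 to 5878957 on the minus strand, and the other 8 lie on the plus strand. lpr-1 (Y65B4BR.2) is on chromosome I at 557433 to 561674, and mlt-10 (C09E8.3) on chromosome II at 546703 to 552025. fbn-1 (ZK783.1) is on chromosome III at 7625310 to 7641010. Chromosome IV holds let-653 (C29E6.1) at 11885506 to 11891057 and noah-2 (F52B11.3) at 14091228 to 14096599. mlt-11 (W01F3.3) is on chromosome V at 20667179 to 20678643, and chromosome X holds lpr-3 (W04G3.8) at 11057369 to 11059728 and sym-1 (C44H4.3) at 14581584 to 14584299. In the Ensembl annotation of WBcel235, used for structure only, the longest products run from 275 residues for LPR-1 to 2781 for FBN-1 and 3129 for MLT-11. NOAH-1 has 1052 residues and NOAH-2 has 741. fbn-1 has 9 annotated transcripts and mlt-11 has 8, and the deposited values are sums per gene, so isoforms were not separated.

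The deposited counts are RSEM expected counts, and the libraries held 22138098 to 34585489 of them. The 9 genes together took between 0.0399% of the counts in lin-45 50 mM replicate 1 and 0.398% in N2 300-500 mM replicate 1. Levels below are CPM, that is counts relative to library size with trimmed mean of M values (TMM) scaling, except where FPKM, which divides by transcript length, is named. A gene is said to rise or fall where edgeR's two-sided quasi-likelihood test gave an adjusted p under 0.05 over all tested genes. All 12 lists of tissue, stage and matrix genes were detected in every group. The one listed gene without a count in a group was the early endoderm factor gene end-1 in unstressed N2. The lin-45 transcript stood at 81.5 to 119.1 CPM over the 10 libraries, and its level does not check the genotype. For these genes the replicates differed by 1.07-fold to 1.27-fold in stressed N2 and by 1.01-fold to 1.29-fold in stressed lin-45. The gaps reached 1.42-fold in unstressed N2, 1.78-fold in preconditioned N2 and 2.38-fold in unstressed lin-45.

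**Figure D1:**
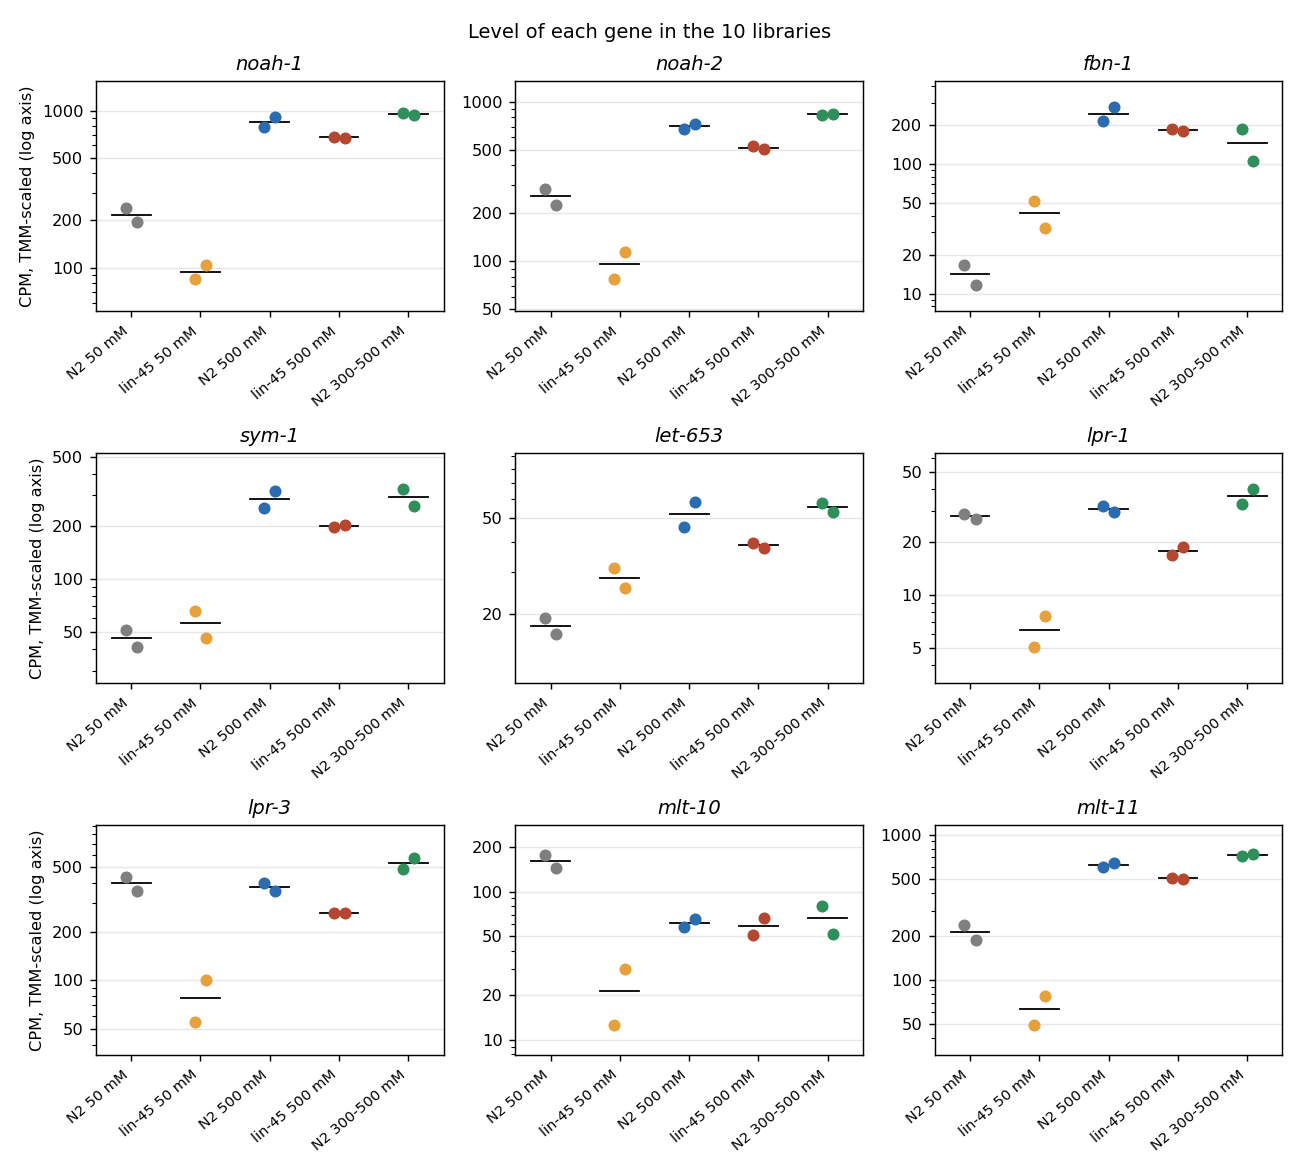
TMM-scaled CPM (log axis) of each of the 9 genes in the 10 libraries, with 2 points and a line at the mean for each group. noah-1, noah-2, fbn-1, sym-1, let-653 and mlt-11 lie higher in all 6 libraries on 500 mM than in all 4 on 50 mM, whereas mlt-10 is highest in N2 50 mM and lpr-1 and lpr-3 are lowest in lin-45 50 mM. The share of all tested genes separated in this way by salt was not computed.

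The sheath ZP gene noah-1 was low on 50 mM and high on 500 mM in both strains. Its level was 239.5 and 197 CPM in the unstressed N2 libraries, 84.5 and 104.5 in unstressed lin-45, 786 and 906 in stressed N2, 683 and 668 in stressed lin-45, and 964 and 940.3 in preconditioned N2. No group overlapped the next in this order of means, which ran from unstressed lin-45 through unstressed N2, stressed lin-45 and stressed N2 to the preconditioned group. On salt noah-1 rose 3.88-fold in N2 (log2 1.96 ± 0.13 SE, adjusted p = 5.32e-06) and 7.15-fold in lin-45 (2.84 ± 0.14, adjusted p = 8.32e-07). On 50 mM it was 2.31-fold lower in the mutant than in N2 (-1.21 ± 0.13, adjusted p = 0.000193). In bulk embryos, fewer cells of a type and less RNA per cell cannot be told apart, which holds for every result here.

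Its partner noah-2 followed the same order of groups. noah-2 stood at 284 and 227 CPM in unstressed N2, 77.7 and 114 in unstressed lin-45, 674 and 729 in stressed N2, 528 and 507 in stressed lin-45, and 828 and 845 in the preconditioned libraries. Again no neighbouring groups overlapped. Salt raised noah-2 by 2.75-fold in N2 (1.46 ± 0.17, adjusted p = 0.000109) and by 5.40-fold in lin-45 (2.43 ± 0.18, adjusted p = 5.94e-06), and on 50 mM the mutant was lower by 2.66-fold (-1.41 ± 0.17, adjusted p = 0.000283). Per length, the FPKM of noah-1 divided by that of noah-2 was 0.564 and 0.580 in unstressed N2 and 0.726 and 0.615 in unstressed lin-45. On 500 mM the FPKM ratio was 0.781 and 0.832 in N2, 0.867 and 0.882 in lin-45, and 0.779 and 0.744 in the preconditioned group. The ratio was thus at least 0.744 in all 6 libraries on 500 mM and at most 0.726 in all 4 on 50 mM, a pattern seen after the values were computed and not tested.

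The fibrillin-related gene fbn-1 had the widest range of the 9, with a 17.3-fold span between its highest and lowest group means. It stood at 16.7 and 11.7 CPM in unstressed N2, 51.8 and 32.4 in unstressed lin-45, 216 and 275 in stressed N2, 187 and 182 in stressed lin-45, and 188 and 106 in preconditioned N2. Unstressed N2 was the lowest group and unstressed lin-45 the next, and the preconditioned libraries overlapped those of stressed lin-45. fbn-1 rose on salt 17.4-fold in N2 (4.12 ± 0.34, adjusted p = 1.63e-05) and 4.39-fold in lin-45 (2.14 ± 0.31, adjusted p = 0.000327). On 50 mM it was 2.98-fold higher in the mutant (1.57 ± 0.32, adjusted p = 0.00354), the opposite direction to the noah genes. The 3' part of fbn-1 shares 367 bases with upp-1, which lies on the other strand at 7640644 to 7643038. Strandedness of counting is not given in the sources used here, so reads in the overlap cannot be told apart. upp-1 itself stood at 78.8 CPM in unstressed N2 and 65.8 in stressed N2. In lin-45 it stood at 102.3 CPM unstressed and 72.7 stressed, so on 50 mM it was higher in the mutant, as fbn-1 was.

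sym-1, the LRR protein gene, was low in both strains on 50 mM and high in all groups on 500 mM. It stood at 51.3 and 40.8 CPM in unstressed N2, 65.7 and 46.4 in unstressed lin-45, 255 and 317 in stressed N2, 199 and 202 in stressed lin-45, and 328 and 262 in the preconditioned libraries. The libraries of the strains on 50 mM overlapped, and so did stressed N2 and N2 300-500 mM. On salt sym-1 rose 6.21-fold in N2 (2.64 ± 0.20, adjusted p = 1.01e-05) and 3.59-fold in lin-45 (1.84 ± 0.20, adjusted p = 5.11e-05), while the strain difference on 50 mM did not pass (0.28 ± 0.19, adjusted p = 0.245). All 2716 bases of sym-1 lie inside C44H4.4 on the opposite strand. C44H4.4 stood at 63.0 ± 2.12 CPM in unstressed N2 and 62.5 ± 3.29 in stressed N2 (SD, n = 2 each), and its salt response in N2 was -0.01 ± 0.09. In lin-45 it stood at 45.4 ± 2.41 CPM unstressed and 55.7 ± 4.04 stressed, a log2 salt response of 0.29.

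**Figure D2:**
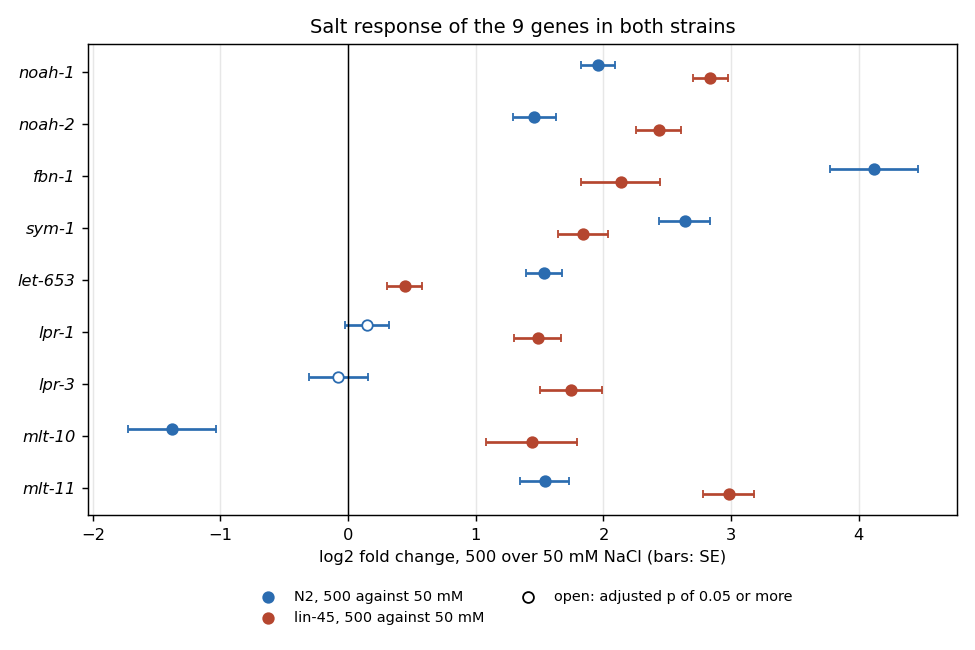
log2 fold change on 500 against 50 mM NaCl with its standard error for each of the 9 genes, in N2 (blue) and lin-45 (red), where open circles did not pass an adjusted p of 0.05. In lin-45 all 9 genes lie right of 0, between 0.44 and 2.98, whereas in N2 lpr-1 and lpr-3 lie at 0.15 and -0.08 and mlt-10 at -1.38.

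let-653, the ZP gene of the excretory duct, had the narrowest range, with a 3.08-fold span between group means. Its values were 19.3 and 16.7 CPM in unstressed N2, 31.0 and 25.8 in unstressed lin-45, 46.1 and 58.1 in stressed N2, 39.4 and 37.7 in stressed lin-45, and 57.8 and 53.1 in preconditioned N2. The preconditioned libraries lay within the range of stressed N2, and the other neighbouring groups did not overlap. let-653 rose 2.90-fold on salt in N2 (1.54 ± 0.14, adjusted p = 2.86e-05) and 1.36-fold in lin-45 (0.44 ± 0.14, adjusted p = 0.0186), and on 50 mM it was 1.58-fold higher in the mutant (0.66 ± 0.14, adjusted p = 0.00446). The small rise in lin-45 lost its call without lin-45 50 mM replicate 2 (adjusted p = 0.12) and without lin-45 500 mM replicate 1 (adjusted p = 0.0845).

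The lipocalin genes lpr-1 and lpr-3 did not pass the test on salt in N2, and rose on salt in the mutant. lpr-1 stood at 28.9 and 26.9 CPM in unstressed N2, 5.03 and 7.59 in unstressed lin-45, 32.2 and 29.6 in stressed N2, 16.9 and 18.8 in stressed lin-45, and 32.9 and 40.1 in the preconditioned libraries. Both lin-45 groups lay below every N2 library. Its salt response was 0.15 ± 0.17 in N2 (adjusted p = 0.464) and 1.49 ± 0.18 in lin-45 (adjusted p = 0.000127), where the level rose 2.80-fold. On 50 mM lpr-1 was 4.38-fold lower in the mutant than in N2 (-2.13 ± 0.19, adjusted p = 0.000106).

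lpr-3, the most abundant of the 9 per length in unstressed N2, had 438 and 357 CPM there and 55.2 and 100.2 in unstressed lin-45. On 500 mM it had 399 and 355 CPM in N2, 259 and 263 in lin-45, and 486 and 575 in the preconditioned libraries. Here too the mutant groups were the lowest pair, and the N2 groups on 50 and 500 mM overlapped. The salt response of lpr-3 was -0.08 ± 0.23 in N2 (adjusted p = 0.782). In lin-45 it rose 3.35-fold (1.75 ± 0.24, adjusted p = 0.000238), from a level on 50 mM that was 5.11-fold below N2 (-2.35 ± 0.25, adjusted p = 0.000176). The FPKM ratio of lpr-3 to lpr-1 stayed between 5.002 and 7.01 in the 10 libraries.

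The moulting genes mlt-10 and mlt-11 went opposite ways on salt in N2. mlt-11, the protease inhibitor gene, stood at 239.5 and 189.5 CPM in unstressed N2, 49.0 and 77.6 in unstressed lin-45, 603 and 644 in stressed N2, 504 and 498 in stressed lin-45, and 713 and 733 in preconditioned N2. This is the order of groups of noah-1 and noah-2, without overlap. mlt-11 rose on salt 2.91-fold in N2 (1.54 ± 0.19, adjusted p = 0.00016) and 7.89-fold in lin-45 (2.98 ± 0.20, adjusted p = 4.28e-06), and was 3.38-fold lower in the mutant on 50 mM (-1.76 ± 0.19, adjusted p = 0.000212).

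mlt-10 was highest in unstressed N2 embryos. It stood at 176 and 143 CPM in unstressed N2, 12.7 and 30.2 in unstressed lin-45, 58.1 and 64.8 in stressed N2, 51.2 and 66.1 in stressed lin-45, and 80.2 and 51.5 in the preconditioned libraries. The 3 groups on 500 mM overlapped, and the groups on 50 mM lay above and below them. mlt-10 fell on salt in N2, by 2.60-fold (-1.38 ± 0.35, adjusted p = 0.00777), and rose in lin-45 by 2.71-fold (1.44 ± 0.36, adjusted p = 0.00643). On 50 mM the mutant was 7.38-fold below N2 (-2.88 ± 0.37, adjusted p = 0.00037), the deepest strain difference of the 9. The fall in N2 just missed the threshold without N2 500 mM replicate 1 (adjusted p = 0.0513). The lin-45 values rest on a pair of unlike libraries: the strain difference was -2.41 without lin-45 50 mM replicate 1 and -3.65 without replicate 2, and the salt response in lin-45 was 0.96 and 2.21 in the same fits.

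Counted over the 9 genes, salt in N2 raised 6, lowered 1 and left 2 without a call, with a median log2 change of 1.54. Of all tested genes 63.5% passed in this comparison, 31.4% higher and 32.1% lower, and their median change was -0.01. In lin-45 all 9 genes rose, with a median of 1.84, where 68.3% of all tested genes passed. Of all tested genes 33.4% rose, 34.9% fell and the median was -0.02. Between strains on 50 mM, 6 of 9 were lower in lin-45, 2 were higher and 1 did not pass, with a median of -1.41. In that comparison 54.3% of all tested genes passed, 21.1% lower and 33.2% higher, and their median was 0.16. The members lower in the mutant were noah-1, noah-2, lpr-1, lpr-3, mlt-10 and mlt-11, and the members higher were fbn-1 and let-653. These counts describe 9 genes whose behaviour was in part known when they were listed, and are no test of the list.

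**Figure D3:**
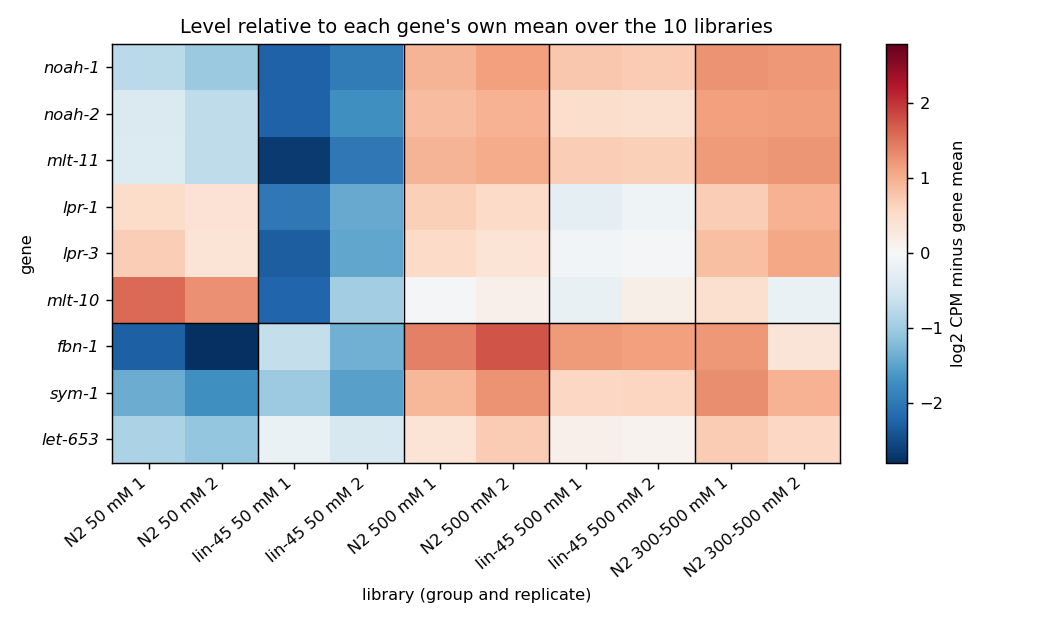
log2 CPM of each gene in each library minus that gene's mean over the 10 libraries, with genes ordered after their values were seen. The 6 genes above the line are lowest in both lin-45 50 mM libraries, and the 3 below it (fbn-1, sym-1 and let-653) are lowest in N2 50 mM libraries or, for sym-1, low in all 4 libraries on 50 mM.

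The difference of the salt responses, that in lin-45 minus that in N2, asks where the log2 changes on salt differ between the strains. Of the 9 genes 6 had a more positive response in lin-45, where 12.2% of all tested genes did and 26.4% passed in either direction. The values were 0.88 ± 0.18 for noah-1 (adjusted p = 0.0126), 0.97 ± 0.24 for noah-2 (adjusted p = 0.0204) and 1.34 ± 0.25 for lpr-1 (adjusted p = 0.0102). They were larger for mlt-11 at 1.44 ± 0.27 (adjusted p = 0.0101), lpr-3 at 1.82 ± 0.33 (adjusted p = 0.00964) and mlt-10 at 2.82 ± 0.50 (adjusted p = 0.00901). A more negative response was found for fbn-1 at -1.99 ± 0.44 (adjusted p = 0.0152) and let-653 at -1.09 ± 0.20 (adjusted p = 0.00923), where 14.3% of all tested genes had one. sym-1 gave -0.79 ± 0.27, which did not pass (adjusted p = 0.0590).

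The means of the strains lay closer, as a ratio, on 500 mM than on 50 mM for 8 of the 9 genes, sym-1 being the exception. The share of all tested genes with strain means closer on 500 mM was not computed, so this count has no background. By the adjusted p, a different measure, 54.3% of all tested genes were called between strains on 50 mM and 6.49% on 500 mM. mlt-10 had 58.6 ± 10.6 CPM in stressed lin-45 and 61.5 ± 4.75 in stressed N2 (SD, n = 2 each), against 21.4 ± 12.4 and 159.9 ± 23.3 on 50 mM. fbn-1 had 184 ± 3.05 CPM in stressed lin-45 and 245 ± 41.4 in stressed N2, against 42.1 ± 13.7 and 14.2 ± 3.49 on 50 mM. The number of the 9 genes whose salt responses passed as different fell from 8 to 5 without N2 50 mM replicate 1, the library whose removal also cut the calls over all genes from 3912 to 783, and the calls on noah-1 (adjusted p = 0.0581), noah-2 (adjusted p = 0.0843) and lpr-1 (adjusted p = 0.0507) ended there. The call on noah-2 also ended without either stressed N2 library or lin-45 500 mM replicate 1 (adjusted p = 0.0616 to 0.0667). That on fbn-1 ended without N2 50 mM replicate 2, N2 500 mM replicate 2 or either stressed lin-45 library (adjusted p = 0.0519 to 0.0757), and that on let-653 without lin-45 500 mM replicate 2 (adjusted p = 0.0573). sym-1 passed with DESeq2 (adjusted p = 0.031), in a fit of the 4 groups alone (adjusted p = 0.0331), without lin-45 50 mM replicate 2 (adjusted p = 0.0194) and without N2 300-500 mM replicate 1 (adjusted p = 0.0333). Over all genes, the share of these calls that were more positive was 46.0%, but 57.3% with RLE and 65.8% with upper-quartile scaling, while the 9 genes kept their directions.

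**Figure D4:**
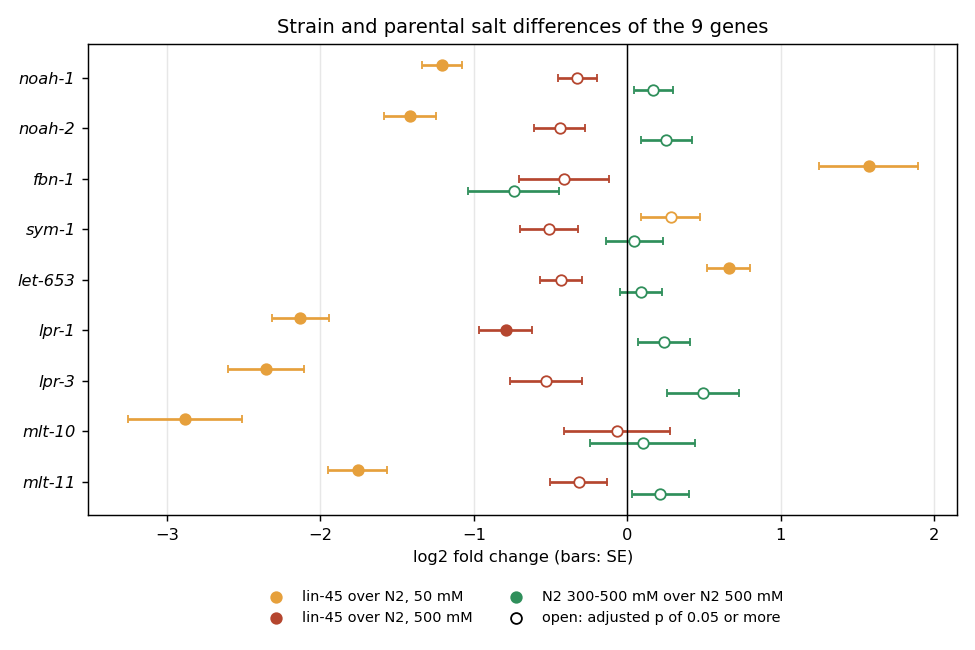
log2 fold change with its standard error for lin-45 against N2 on 50 mM (orange) and on 500 mM (red), and for preconditioned against other N2 embryos on 500 mM (green), with open circles for adjusted p of 0.05 or more. The strain differences on 50 mM spread from -2.88 to 1.57, whereas those on 500 mM lie between -0.79 and -0.07.

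On 500 mM the fitted strain differences were small. All 9 genes had a lower fitted level in lin-45, with log2 differences from -0.79 to -0.07 and a median of -0.43, against a median of 0.00 over all tested genes. Only lpr-1 passed, at -0.79 ± 0.17 (adjusted p = 0.0301), where 1.65% of all tested genes were lower and 4.84% higher. The libraries of the strains did not overlap for 8 of the 9 genes, mlt-10 being the exception. The share of all tested genes without such overlap was not computed, so this count has no background to be read against. By the adjusted p, 6.49% of all tested genes were called in this comparison. A fit of these 4 libraries alone called 8 of the 9 genes and 2927 genes in all, against 961 in the shared fit, and the lpr-1 call was lost in each fit without a library of unstressed N2, stressed N2 or stressed lin-45 (adjusted p = 0.0605 to 0.215).

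Parental salt asks whether growth of the parents on 300 mM changes these genes in embryos on 500 mM. None of the 9 passed with edgeR, where 22.2% of all tested genes were called. The libraries of the groups overlapped for sym-1, let-653 and mlt-10. The share of all tested genes with such overlap was not computed, so this too has no background to be read against. At an unadjusted p under 0.05 there was 1 of the 9, fbn-1, where 5464 of all 14802 tested genes had such a p. DESeq2 called 0 of the 9, and 3123 genes in all. The differences, preconditioned minus stressed N2, ran from -0.74 ± 0.30 for fbn-1 (adjusted p = 0.106) to 0.49 ± 0.23 for lpr-3 (adjusted p = 0.162). The preconditioned fbn-1 libraries were unlike, at 188 and 106 CPM. Without the first of them fbn-1 gave -1.28 ± 0.28 and passed (adjusted p = 0.0119). lpr-3 passed without either lin-45 50 mM library (adjusted p = 0.0222 and 0.0245) and in a fit of the 2 groups alone (adjusted p = 0.0402).

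Compared per length, the genes changed rank with salt. In unstressed N2 the FPKM ran from 209.5 ± 29.8 for lpr-3 and 106 ± 16.4 for noah-2 down to 7.93 ± 0.849 for let-653 and 1.71 ± 0.410 for fbn-1 (SD, n = 2). In stressed N2 noah-2 led at 279.8 ± 20.4 FPKM, followed by noah-1 at 226 ± 26.6 and lpr-3 at 191 ± 12.5, and let-653 was last at 20.99 ± 3.59. mlt-10 went from 72.96 ± 10.5 FPKM, rank 3 of the 9, to 27.05 ± 2.54, rank 8. fbn-1 at 28.6 ± 5.33 FPKM then stood beside mlt-10, lpr-1 (34.4 ± 1.56) and let-653, although it had been the lowest by far on 50 mM.

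Most other listed genes of the lipocalin, LRR and ZP classes were lower in the unstressed mutant than in unstressed N2. Of these 11 genes, listed as other precuticle genes, 9 were lower and 1 higher in lin-45 on 50 mM (median -1.86). On salt 10 rose and 1 fell in lin-45 (median 1.72). In N2 4 rose on salt, 1 fell and 6 did not pass (median 0.40). let-4, an LRR gene of the duct and pore matrix, differed by -1.51 ± 0.11 between the strains on 50 mM (adjusted p = 6.97e-05), and rose on salt by 1.43 ± 0.10 in N2 and 2.56 ± 0.11 in lin-45. The lipocalin gene lpr-6 differed by -2.22 ± 0.20 between the strains on 50 mM. Another lipocalin gene, lpr-2, did not pass there (0.24 ± 0.15, adjusted p = 0.212). Unlike lpr-1 and lpr-3, lpr-2 rose on salt in N2, by 1.30 ± 0.15, and it rose by 0.96 ± 0.15 in lin-45. It was lower in preconditioned than in stressed N2, at -0.69 ± 0.15. pan-1, another LRR gene, was the 1 that was higher in the mutant on 50 mM, by 1.04 ± 0.09. It rose on salt in N2 by 0.85 ± 0.09 and fell in lin-45 (-0.57 ± 0.09). It stood at 238 ± 23.97 CPM in unstressed lin-45 and 159.8 ± 1.92 in stressed lin-45. Its salt response differed between strains by -1.43 ± 0.12, and those of let-4 and dyf-7, a ZP gene of sensory dendrite tips, by 1.14 ± 0.15 and 1.79 ± 0.29.

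**Figure D5:**
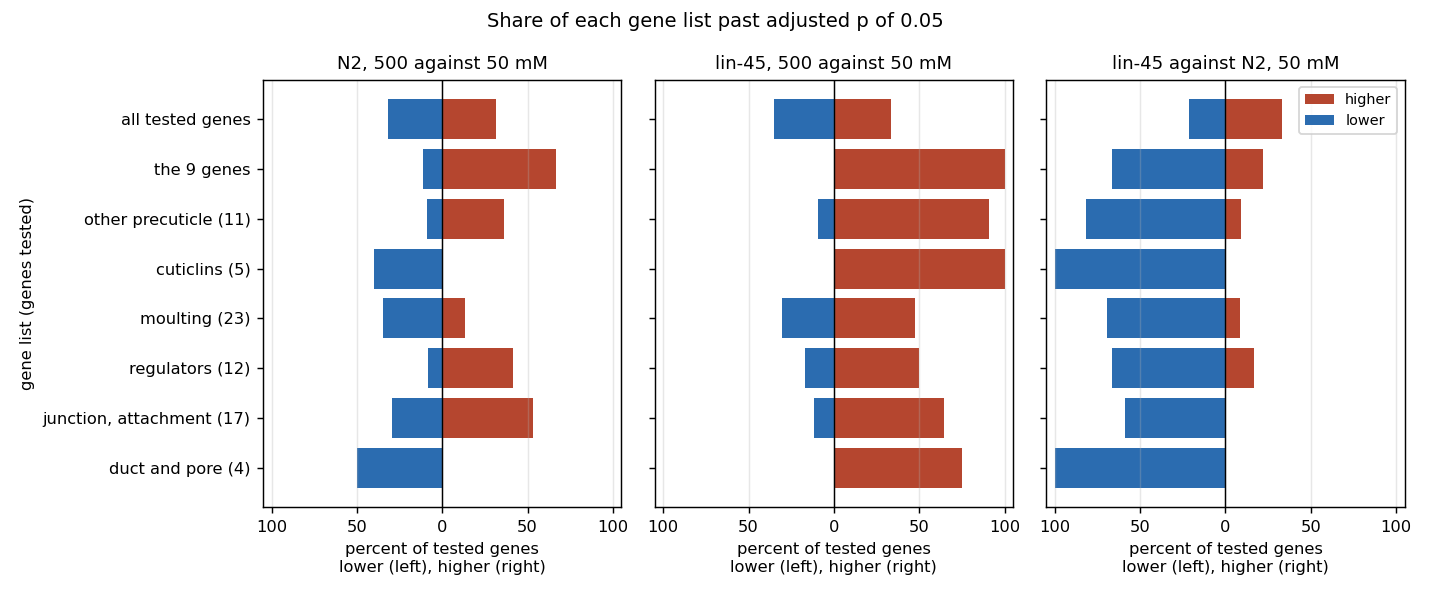
Percent of the tested genes of each list that were higher (red, right) or lower (blue, left) at an adjusted p under 0.05, for all tested genes, the 9 genes and 6 lists with the number tested in brackets. In lin-45 on salt the 9 genes and the 5 cuticlin genes lie wholly on the higher side, and in lin-45 against N2 on 50 mM the cuticlins and the 4 duct and pore markers lie wholly on the lower side.

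The cuticlin genes, which code for insoluble ZP proteins of the cuticle, had 5 tested members. All 5 were lower in lin-45 on 50 mM (median -2.64) and all 5 rose on salt in lin-45 (median 1.68), whereas in N2 2 fell and 3 did not pass. cut-2 went from 2913 ± 456 CPM in unstressed N2 to 1342 ± 124 in stressed N2 (-1.12 ± 0.27), and stood at 478 ± 214 CPM in unstressed lin-45. Like mlt-10, it was thus highest in unstressed N2.

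Of 23 other moulting genes, 16 were lower and 2 higher in lin-45 on 50 mM (median -0.77). On salt 3 rose and 8 fell in N2 (median -0.27), and 11 rose and 7 fell in lin-45 (median 0.37). mlt-8 rose by 1.62 ± 0.19 in N2 and 2.63 ± 0.20 in lin-45, and lrp-1, the megalin-like receptor gene needed for moulting, rose by 1.08 ± 0.09 and 1.94 ± 0.09. The peroxidase gene mlt-7 fell in both, at -1.16 ± 0.11 and -0.58 ± 0.11. pqn-47, the older name of myrf-1, a membrane-bound transcription factor gene, was 1.46 ± 0.13 higher in lin-45 on 50 mM and fell there on salt, at -1.44 ± 0.13.

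Among 12 epidermal and moulting regulators, 8 were lower and 2 higher in lin-45 on 50 mM (median -0.42). On salt 5 rose and 1 fell in N2, and 6 rose and 2 fell in lin-45. nhr-23 encodes the nuclear receptor that drives moulting gene expression. Its transcript rose in N2 by 1.44 ± 0.12 (adjusted p = 1.57e-05), from 27.3 ± 0.216 to 74.2 ± 1.37 CPM, but stood at 56.4 ± 10.2 CPM in unstressed lin-45 and 53.6 ± 1.30 in stressed lin-45. Its salt responses differed by -1.51 ± 0.17 (adjusted p = 0.00324), the direction of fbn-1 and let-653 and not of the noah genes. bed-3 and lin-42 differed the other way, by 1.37 ± 0.27 and 1.01 ± 0.15. lin-26, blmp-1 and peb-1 were among 9 of the 12 regulators that were higher in preconditioned embryos, at 0.60 ± 0.07, 0.58 ± 0.07 and 0.59 ± 0.08, while 0 of the 12 were lower. Of all tested genes 10.2% were higher and 12% lower in that comparison.

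Markers of the cells that make these matrices also differed between the groups. The 17 epidermal junction and attachment genes summed to 8656 to 9077 CPM in unstressed N2, 6270 to 6460 in unstressed lin-45, 9819 to 10043 in stressed N2, 9090 to 9296 in stressed lin-45 and 10457 to 11270 in preconditioned libraries. Of these, 10 were lower and 0 higher in lin-45 on 50 mM. On salt 9 rose and 5 fell in N2 and 11 rose and 2 fell in lin-45, among them the spectrin gene sma-1 at 1.65 ± 0.08 and 1.80 ± 0.08. The 4 excretory duct and pore markers summed to 57.6 to 64.8 CPM in unstressed N2, 14.7 to 21.8 in unstressed lin-45, 54.3 to 62.7 in stressed N2 and 42.8 to 44.9 in stressed lin-45. All 4 were lower in lin-45 on 50 mM, among them grl-2 at -2.46 ± 0.39 and aff-1 at -1.999 ± 0.26. On salt 0 of the 4 rose and 2 fell in N2, dct-5 at -1.98 ± 0.29 and lin-48 at -0.62 ± 0.17. In lin-45 3 rose on salt and 0 fell. The part of these cells in the results on the 9 genes was not tested.

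Markers of other tissues and stages gave other counts. On 50 mM the body wall muscle markers gave 3 higher and 0 lower of 7 in lin-45, the 6 tested intestine markers 3 and 0, the 7 neuron markers 2 and 3, the 5 pharynx markers 0 and 1, and the 4 germline markers 1 and 1. The 15 maternal and early embryo RNAs gave 1 higher and 2 lower there.

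The summed levels of intestine and of neuron markers were lower on salt in both strains. The 8 intestine markers summed to 2056 to 2237 CPM in unstressed N2 and 949 to 1037 in stressed N2, and to 2765 to 2900 CPM in unstressed lin-45 and 1222 to 1250 in stressed lin-45. Of the 6 tested, 2 rose and 3 fell in N2, and 1 rose and 4 fell in lin-45. ifb-2 and act-5 alone made up 906 and 973 CPM of the sum in unstressed N2, against 477 and 402 in stressed N2. ges-1 was higher on salt in N2 (17.6 to 30.6 CPM) but not in lin-45 (34.2 to 24.8 CPM). pept-1, the intestinal peptide transporter gene, fell in both (-2.10 ± 0.13 and -2.46 ± 0.13), as did act-5, the actin gene of intestinal microvilli (-1.28 ± 0.09 and -1.33 ± 0.09). The 7 neuron markers summed to 1494 to 1543 CPM in unstressed N2 and 1024 to 1060 in stressed N2, and to 1662 to 1775 CPM in unstressed lin-45 and 1132 to 1161 in stressed lin-45. Of these 1 rose and 5 fell in N2, and 1 rose and 4 fell in lin-45. The synaptic vesicle gene rab-3 changed by -1.20 ± 0.12 and -0.77 ± 0.12. unc-119 instead stood higher on salt, at 61.8 against 52.1 CPM in N2 and 47.2 against 37.9 in lin-45. On salt the muscle markers gave 1 higher and 2 lower in N2 and 1 and 3 in lin-45, the pharynx markers 1 and 2 in N2 and 2 and 1 in lin-45, and the germline markers 1 and 0 in N2 and 2 and 0 in lin-45. The part of these tissues in the results on the 9 genes was not tested.

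Among the maternal and early embryo RNAs, on salt 8 of these 15 rose and 1 fell in N2 (median 1.07). In lin-45 10 rose and 1 fell (median 1.36). In N2 and lin-45 in turn, mei-1 changed by 0.83 ± 0.11 and 1.001 ± 0.11, and skn-1 by -0.73 ± 0.07 and -0.89 ± 0.07. Their summed level was 414 to 416 CPM in unstressed N2, 513 to 514 in unstressed lin-45, 368 to 382 in stressed N2, 413 to 456 in stressed lin-45 and 383 to 547 in preconditioned N2. skn-1 alone made up 294 CPM of that sum in unstressed N2 and 401 in unstressed lin-45, against 177 in stressed N2 and 217 in stressed lin-45, so the sum was lower on salt although most of the called genes rose. pos-1 rose on salt in N2 by 2.73 ± 0.82, from 2.09 ± 0.219 to 13.7 ± 7.36 CPM. In lin-45 pos-1 stood at 3.16 ± 1.21 CPM unstressed and 21.7 ± 5.88 stressed. Whether stage differed between groups was not tested.

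For each of the 9 genes the closest profiles over the 10 libraries were found among 11003 other genes with a mean of at least 5 CPM, by Pearson's r of log2 CPM. The libraries share the 5 groups, and r is given as a description. Closest to noah-1 were R148.5 (r = 0.998) and frm-2 (r = 0.998), and to noah-2 the ZP-type cuticlin-like gene cutl-16 (r = 0.999) and the cell cycle inhibitor gene cki-1 (r = 0.998). dlg-1, the discs large gene of the epidermal junction (r = 0.999), and crb-1, a Crumbs gene of apical membranes (r = 0.998), were closest to mlt-11. The profile nearest to lpr-3 was that of gei-13 (r = 0.999), followed by T03G6.1 (r = 0.998), and to lpr-1 those of B0507.1 (r = 0.997) and its fellow lipocalin gene lpr-6 (r = 0.996). sym-1 was matched by C01F1.3 (r = 0.999) and calu-1, a calumenin gene (r = 0.998), and let-653 by rme-6 (r = 0.990) and C29E4.15 (r = 0.988). fbn-1 had K09A11.1 and F33E11.3 (both r = 0.993), and mlt-10 the least close matches, C29G2.3 (r = 0.968) and F48G7.5 (r = 0.962). C29G2.3 repeated the profile of mlt-10, with means of 64.0 CPM in unstressed N2, 13.4 in unstressed lin-45 and 28.2 to 31.0 in the 3 groups on 500 mM.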

How the data were processed

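RNA-seq of 10 embryo libraries in 5 groups of 2 was used. Per the file headers, the authors deposited an RSEM expected count per gene and library, not normalized, an FPKM value, and the log2 of FPKM plus 1, whose average and variance over libraries fill 2 more columns. The submitters' processing notes list RSEM 1.2.15 and BWA 0.6.1, along with DESeq 1.10.1, bedtools 2.25.0 and genome build ce10. The role of each, the gene annotation and the strandedness are details not given in the sources used here. Deposited FPKM was used only to compare genes with each other, and the log2 columns were not used.

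Expected counts were rounded for edgeR 4.0.16 (R 4.3.3). The filter asked for 1 CPM or more in 2 libraries or more and kept 14802 of 45461 genes, which hold 99.89% or more of each library's counts, and TMM factors ran from 0.923 to 1.083. A quasi-likelihood model with a mean per group was fitted to all 10 libraries, with 5 residual degrees of freedom and a pooled coefficient of variation of 13.1%. The 6 contrasts were tested with two-sided F tests and Benjamini-Hochberg adjustment over genes, threshold 0.05. An exact permutation test of 2 against 2 libraries cannot go below p = 0.333, so calls rest on the pooled spread. Errors are standard errors (SE) for log2 changes and standard deviations (SD) for levels.

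The genes and the 12 lists were chosen with earlier results of these data known. Named genes are the 9, up to 3 genes per list and comparison with the smallest p among those past the threshold whose higher group averages 5 CPM or more, and the 2 closest profiles of each of the 9. Where a listed gene is given in a comparison that did not name it, it was chosen after its values were seen. Of 119 listed genes, 115 matched by name, 1 by an older name and 3 by RefSeq locus tag. Alternatives were RLE and upper-quartile scaling, DESeq2 1.42.0, no filter, only the groups compared, a replicate block and leaving out each library.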

Additional observations from a re-analysis of the deposited data

Results flagged for a closer look

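The salt response differed between lin-45 and N2, by a test of the difference itself, for 8 of the 9 genes, in a comparison where 26.4% of all tested genes passed. Without N2 50 mM replicate 1 it passed for 5 of the 9. The log2 response in lin-45 minus that in N2 was 0.88 for noah-1, 0.97 for noah-2, 1.44 for mlt-11, 1.34 for lpr-1, 1.82 for lpr-3 and 2.82 for mlt-10, and -1.99 for fbn-1 and -1.09 for let-653. For mlt-10 the responses of the strains had opposite signs, both past the threshold.

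The same test picked out 3 other precuticle genes and 3 regulators named by the rule. let-4 differed by 1.14, dyf-7 by 1.79 and pan-1 by -1.43, and bed-3 by 1.37, lin-42 by 1.01 and nhr-23 by -1.51. No group had enough libraries for a test of single outlying values.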

How the results depend on the processing

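Over 16 alternatives for the 54 values of the 9 genes, 816 of 864 kept direction and call, 20 lost a call, 19 gained one and 9 changed sign. The sign changes were in values that did not pass, when single libraries were left out: lpr-3 on salt in N2 ranged from -0.22 to 0.08, mlt-10 between strains on 500 mM from -0.25 to 0.10, and under parental salt mlt-10 from -0.31 to 0.41, let-653 from -0.07 to 0.27 and sym-1 from -0.19 to 0.22. The changed values were 0.077 and 0.0033 for lpr-3, 0.012 and 0.105 for mlt-10 between strains and, under parental salt, -0.314 for mlt-10, -0.068 and -0.032 for let-653 and -0.103 and -0.185 for sym-1. The cause was not tested.

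Leaving out single libraries moved the members called between 5 and 9 for the difference of salt responses, 0 and 3 for the strains on 500 mM and 0 and 1 for parental salt. All genes called moved between 783 (without N2 50 mM replicate 1) and 5810 for the difference of responses, 1444 and 4267 for parental salt, 5214 and 9131 for the strains on 50 mM, and 247 (without N2 500 mM replicate 2) and 2206 for the strains on 500 mM. Fitting only the groups compared called 1263 genes and 1 member for parental salt, and 2927 genes and 8 members for the strains on 500 mM.

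The labels do not say that a replicate number marks a shared batch, and differences between replicates correlated between groups at r = -0.23 to 0.15 over 10 pairs of groups. With a replicate block the members called stayed at 7 and 9 for salt in N2 and lin-45, and 8, 8, 1 and 0 for the difference of responses, the strains on 50 mM, the strains on 500 mM and parental salt. Over all genes the block gave 8972 calls for salt in N2 against 9398, 9792 against 10110 for salt in lin-45, 2928 against 3912 for the difference of responses, 7592 against 8038 and 660 against 961 for the strains on 50 and 500 mM, and 2649 against 3292 for parental salt. The strain difference on 50 mM has a median over all genes of 0.16, or 0.11 with RLE and 0.06 with upper-quartile scaling.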

Other observations

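Within lin-45 50 mM the replicates did not differ in one direction. noah-1, noah-2, lpr-1, lpr-3, mlt-10 and mlt-11 were lower in replicate 1, and fbn-1, sym-1 and let-653 were lower in replicate 2. mlt-10 had 12.7 CPM in replicate 1 and 30.2 in replicate 2, a 2.38-fold gap, and lpr-3 had 55.2 and 100.2, a 1.81-fold gap. In N2 50 mM all 9 genes were lower in replicate 2, by 1.08-fold to 1.42-fold. This pattern was seen after the values were computed and was not tested.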
